A study of Monodelphis domestica with 2 samples.

Results

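Axon guidance ligands and receptors were described in V1, the primary visual area of the cortex, in adult opossums of the marsupial species Monodelphis domestica. The members are all genes whose symbol names a semaphorin, plexin, neuropilin, SLIT, ROBO, ephrin, Eph receptor, netrin, DCC, NEO1, UNC5 or RGM gene, and the rule used no measured value. It found 64 of 30800 genes, of which 11590 (37.6%) carry a symbol. The members are 19 semaphorins, 7 plexins, 2 neuropilins, 3 SLITs, 3 ROBOs, 2 netrins, 6 receptors of the DCC, NEO1 and UNC5 group, 2 RGMs, 8 ephrins, 10 Eph receptors, and UNC50 and UNC5CL, which match by symbol but are not guidance receptors. EPHA6, EPHA10, EPHB1, EPHB3, NTN1, PLXNA4, PLXNB2, ROBO3 and SEMA6B have no row under that symbol and were not analysed here.

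Tissue came from both hemispheres of 2 adult males of a laboratory colony, animal 1 aged 1.5 years and animal 2 aged 2 years, and the hemispheres were pooled within each animal. Nuclei were sorted for the DNA dye Draq5, and each animal gave 2 libraries of single-nucleus RNA sequencing, with 55625042 to 69706055 unique molecular identifiers (UMIs, each a counted RNA molecule) per library. The 32764 labelled nuclei (16045 and 16719) fell into 18 subclasses, 8 glutamatergic, 5 GABAergic and 5 non-neuronal. The 4 intratelencephalic (IT) subclasses, IT_A to IT_D, are glutamatergic neurons with axons inside the telencephalon. L5PT are layer 5 pyramidal tract neurons, L6CT are layer 6 corticothalamic neurons, L5NP are layer 5 near-projecting neurons, OD are oligodendrocytes and OPC are their precursors. Counts were summed over the nuclei of each subclass and animal and scaled to counts per 1000000 UMIs (CPM), so the replicate is the animal (n = 2). Values were given to an animal, and so to an age, by the sample titles, whose numbers differ from those of the library names in the same records. Animal and age cannot be told apart, and the preparations were made in parallel by 2 experimenters.

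Guidance cues steer growing axons by attraction or repulsion. SLITs are secreted repellents read by ROBO receptors, class 3 semaphorins are secreted and act through neuropilins and plexins, and the other semaphorins mostly bind plexins directly. Netrins bind DCC and UNC5 receptors, RGM proteins bind NEO1, and ephrins sit on the cell surface and bind Eph receptor kinases on neighbouring cells. Many of these genes stay active in the adult brain, where they are known for roles at synapses, in myelinating cells and in vessels.

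The labels were checked against defining markers. GAD1 was at 307 to 646 CPM (mean of the animals) in the GABAergic subclasses and at most 6.72 CPM in the glutamatergic ones, PDGFRA at 985 CPM in OPC, CSF1R at 1003 CPM in Micro and FLT1 at 2614 CPM in Endo. Neuronal markers (3 genes summed) were also present in non-neuronal nuclei, at 313 to 545 CPM in OD, Astro and Micro, 350 and 778 CPM in Endo and 1117 and 1243 CPM in OPC, against 3076 to 5893 CPM in the 13 neuronal subclasses. Their part in the levels of guidance genes in non-neuronal nuclei was not tested. SV2B, a glutamatergic marker, was at 406 CPM in Lamp5, and SLC1A3, an astrocyte marker, at 1265 CPM in Micro, where AQP4, GFAP and GJA1 were at 3.33 to 18.3 CPM. Endo held 29 and 36 nuclei, so that 1 UMI there was worth 20.6 and 17.3 CPM, and L6b held 56 and 53.

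Of the 64 members, 49 reached 20 CPM in both animals, each in the subclass highest in that animal. Their highest subclass was non-neuronal for 26 (53.1%), glutamatergic for 16 (32.7%) and GABAergic for 7 (14.3%), against 63.2%, 19.6% and 17.2% of the 10412 genes past the same minimum. Of the 14 semaphorins past the minimum, 11 were highest in a non-neuronal subclass. Without Endo, L6b and IT_D, each with fewer than 100 nuclei in an animal, the split of 44 members was 18 non-neuronal (40.9%), 17 glutamatergic (38.6%) and 9 GABAergic (20.5%), against 58.0%, 18.7% and 23.3% of 9818 genes, with 8 of 12 semaphorins highest in a non-neuronal subclass. The highest subclass was the same in both animals for 38 of the 49 members (77.6%), against 62.9% of those genes. For 32 members both animals of that subclass also lay above both animals of the next one, against 55.0% of those genes. Endo was highest for 9 members, and 19.4% of all genes past the minimum were highest there, so the 9 members highest in Endo are given with their UMIs. Among them, SEMA6D gave 4 and 7 UMIs there (82.5 and 121 CPM), with Astro next at 56.2 and 45.7 CPM, and EFNA1 gave 1 and 5 UMIs, overlapping with Astro at 30.5 and 28.7 CPM.

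**Figure D1:**
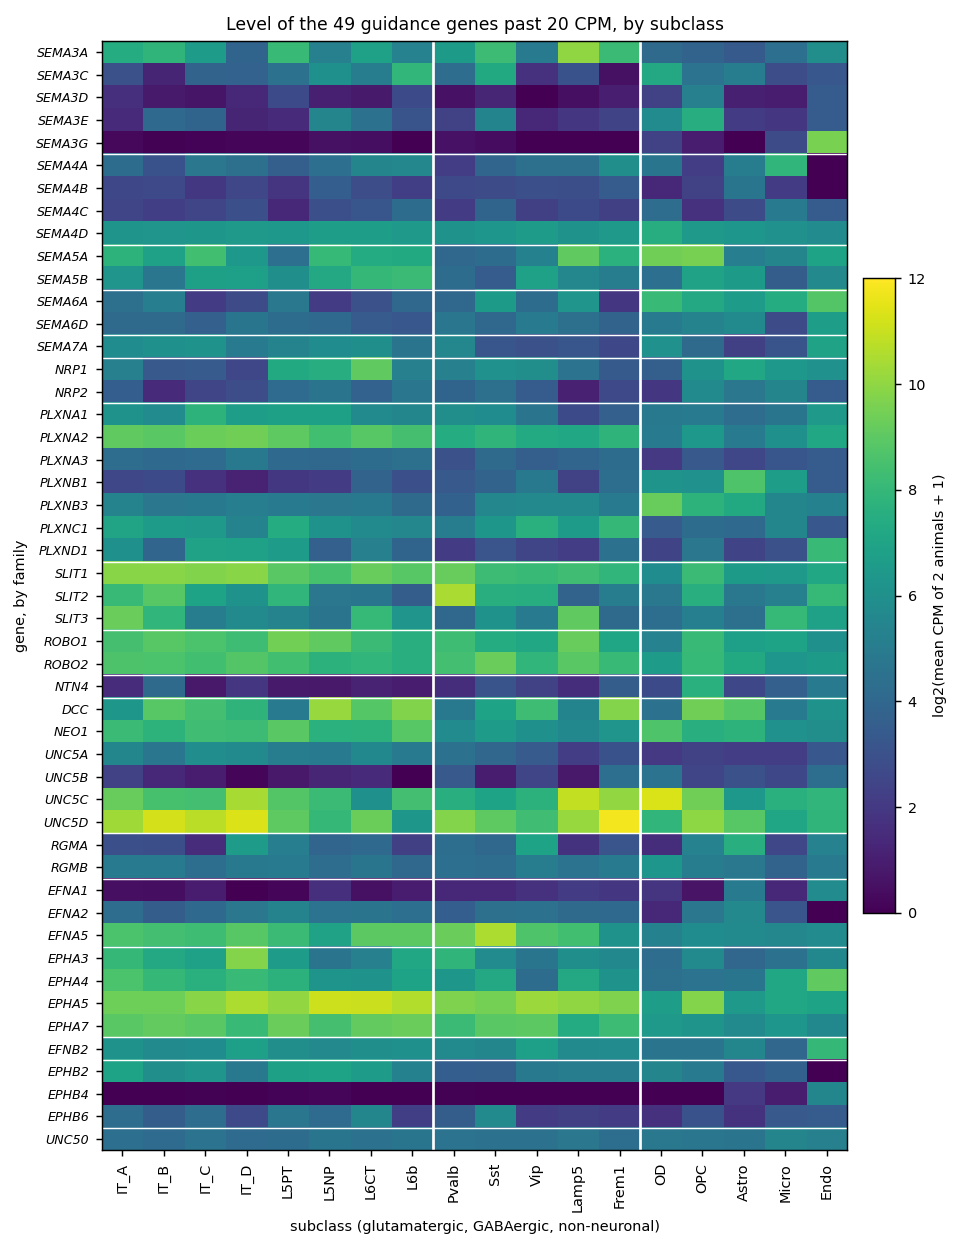
Colour gives log2 of the mean CPM of 2 animals plus 1 for the 49 guidance genes past 20 CPM (rows, grouped by family) in 18 subclasses (columns, with white lines between glutamatergic, GABAergic and non-neuronal subclasses). SEMA3G stands at 759 CPM in Endo and at most 5.87 CPM elsewhere, while EPHA5, SLIT1 and PLXNA2 are spread over all neuronal subclasses.

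The 3 SLIT ligands had different distributions over the neurons. SLIT2 was at 1422 and 1414 CPM in Pvalb neurons of animals 1 and 2, then at 492 and 454 CPM in IT_B and 276 and 291 CPM in IT_A. It was at 17.8 and 8.53 CPM in Lamp5 and 7.26 and 13.9 CPM in L6b. Pvalb neurons thus held 3.00 times the level of the next subclass, with no overlap between animals. SLIT3 was highest in IT_A of animal 1 (702 CPM) and in Lamp5 of animal 2 (518 CPM), and IT_A (702 and 507 CPM) and Lamp5 (565 and 518 CPM) overlapped. It was at 336 and 195 CPM in Micro and 286 and 237 CPM in L6CT, but at 13.6 and 18.1 CPM in Pvalb, where SLIT2 was highest. SLIT1 was at 784 to 956 CPM in the 4 IT subclasses, which overlapped, and at 202 to 351 CPM in Sst, Vip, Lamp5 and Frem1.

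Of their receptors, ROBO1 was at 615 and 788 CPM in L5PT, 555 and 614 CPM in Lamp5 and 474 and 599 CPM in L5NP, and the last 2 overlapped. ROBO2 was at 523 and 709 CPM in Sst and 401 and 564 CPM in Lamp5, which overlapped, and it was higher in animal 2 in all 18 subclasses. In OD, ROBO1 was at 34.0 and 43.7 CPM and ROBO2 at 83.1 and 107 CPM. ROBO4, known from vessels, gave 3 and 1 UMIs in Endo.

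Among the secreted class 3 semaphorins, SEMA3A was at 1141 and 937 CPM in Lamp5 neurons, 3.47 times the level in Sst (272 and 327 CPM). Frem1 followed at 391 and 195 CPM and L5PT at 257 and 282 CPM, and these 3 overlapped in part. SEMA3C was highest in L6b (218 and 278 CPM, from 120 and 140 UMIs), followed by Sst (179 and 135 CPM) and OD (163 and 141 CPM). SEMA3C was at 0.89 and 0 CPM in Frem1. SEMA3E was at 196 and 157 CPM in OPC, 75.5 and 34.8 CPM in OD and 34.7 and 52.8 CPM in L5NP, and SEMA3D was also highest in OPC (31.8 and 42.3 CPM). SEMA3G, a ligand known from vessel endothelium, gave 20 and 64 UMIs in Endo (412 and 1106 CPM), 129 times the next subclass, and 0 or 3 UMIs in OPC.

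NRP1, the neuropilin that binds SEMA3A, was at 558 and 507 CPM in L6CT, 3.02 times the level in L5NP (211 and 141 CPM). L5PT followed at 131 and 182 CPM and Astro at 175 and 104 CPM, both overlapping with L5NP. In the IT subclasses NRP1 was at 30.3 and 41.4 CPM in IT_A and at most 11.5 CPM in IT_B, IT_C and IT_D. NRP2 was at 49.8 and 51.6 CPM in OPC and 43.4 and 41.5 CPM in Micro. The plexin receptors for these complexes differed in reach, PLXNA2 lying at 226 to 875 CPM in the glutamatergic subclasses and PLXNA1 peaking in IT_C at 243 and 188 CPM, 1.91 times the level in L5PT. PLXND1, a receptor for SEMA3E, gave 13 and 17 UMIs in Endo (268 and 294 CPM), then 138 and 98.2 CPM in IT_C, 148 and 83.4 CPM in IT_D and 126 and 72.4 CPM in L5PT. PLXND1 was at 2.39 and 4.04 CPM in Pvalb.

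Several membrane-bound semaphorins and their plexin receptors had their highest levels in glia or microglia. SEMA4A was at 232 and 236 CPM in Micro and 56.2 and 63.4 CPM in Frem1, and was listed at 0 in Endo, where 3 UMIs would be 61.8 and 51.8 CPM. SEMA4D, a ligand of PLXNB1, was at 178 and 181 CPM in OD and at 41.2 to 113 CPM in the 17 other subclasses. PLXNB1 was at 412 and 406 CPM in Astro, 3.97 times its level in Micro (96.2 and 110 CPM), and at most 28.2 CPM in any neuronal subclass. PLXNB3 was at 649 and 516 CPM in OD, 219 and 216 CPM in OPC and 161 and 154 CPM in Astro. SEMA6A was at 268 and 275 CPM in OD, 173 and 171 CPM in Micro and 161 and 142 CPM in OPC, with 25 and 21 UMIs in Endo (515 and 363 CPM). SEMA5A was at 723 and 758 CPM in OPC and 647 and 689 CPM in OD, and among neurons at 457 and 602 CPM in Lamp5 and 312 and 344 CPM in IT_C, against 13.5 to 25.5 CPM in Pvalb, Sst and L5PT. SEMA5B, its close relative, was at 272 and 243 CPM in L6CT and 256 and 325 CPM in L6b. SEMA7A, anchored to the membrane by a lipid, gave 5 and 8 UMIs in Endo (103 and 138 CPM), followed by IT_C (67.3 and 71.8 CPM), OD (74.1 and 56.3 CPM) and IT_B (61.6 and 68.3 CPM), which overlapped. Its receptor PLXNC1 was at 210 and 290 CPM in Frem1 and 177 and 219 CPM in Vip.

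UNC5 receptors mediate repulsion from netrins. UNC5C was at 2643 and 2494 CPM in OD, 1919 and 1932 CPM in Lamp5, 1374 and 1373 CPM in IT_D and 1230 and 924 CPM in Frem1, and none of these 4 overlapped. It was at 57.7 and 68.6 CPM in L6CT. UNC5D was at 3852 and 3260 CPM in Frem1, 2956 and 2301 CPM in IT_D and 2136 and 2615 CPM in IT_B, the last 2 overlapping, and at 41.8 and 119 CPM in L6b. In OD, UNC5D was at 361 and 110 CPM, a wide spread between the animals. UNC5A was at 24.9 to 64.4 CPM in the glutamatergic subclasses and at most 4.98 CPM in OD, OPC, Astro and Micro. The UNC5B maximum was 25.1 CPM in OD.

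DCC, the receptor for attraction to netrins, was at 1181 and 1062 CPM in L5NP, 1049 and 724 CPM in Frem1, 852 and 819 CPM in L6b and 682 and 687 CPM in OPC. It was at 31.0 and 31.1 CPM in L5PT, 21.8 and 33.1 CPM in Pvalb and 20.3 and 23.6 CPM in OD, so that OPC was among the 4 highest subclasses and OD was the lowest. NTN4, a netrin of basement membranes, was at 238 and 149 CPM in OPC, 6.63 times the mean in Endo (2 and 1 UMIs), while NTN3 stayed at most 16.6 CPM. NEO1, the RGM receptor, was at 541 and 422 CPM in L5PT, 527 and 411 CPM in L6b and 436 and 396 CPM in OD, which overlapped, and at 47.6 to 101 CPM in the GABAergic subclasses. RGMA was at 185 and 177 CPM in Astro and 124 and 120 CPM in Vip, and RGMB was at 76.9 and 79.1 CPM in OD, 2.36 times its level in Vip.

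EFNA5, an A-type ephrin, was at 1385 and 1531 CPM in Sst, 614 and 590 CPM in Pvalb and 581 and 438 CPM in L6CT. It was at 56.2 and 86.4 CPM in Frem1, in the range of the non-neuronal subclasses (20.6 to 86.4 CPM). EPHA3, one of its receptors, was at 882 and 895 CPM in IT_D (501 and 2639 UMIs), 3.55 times IT_A (246 and 255 CPM), and at 226 and 230 CPM in Pvalb. EPHA5 was at 2153 and 2137 CPM in L5NP and 2078 and 2152 CPM in L6CT, which overlapped, then 1563 and 1541 CPM in L6b and 1601 and 1371 CPM in IT_D, which also overlapped. In OPC, EPHA5 was at 892 and 846 CPM, against 87.2 and 118 CPM in OD. EPHA4 was at 360 and 416 CPM in IT_A, 160 and 136 CPM in Micro and 16.6 and 19.3 CPM in Vip, with 29 and 28 UMIs in Endo (598 and 484 CPM). EPHA7 was at 446 to 631 CPM in 6 subclasses, IT_A, IT_B, IT_C, L5PT, L6CT and L6b, with Sst and Vip at 482 to 509 CPM. EFNB2 was at 123 and 92.8 CPM in Vip and gave 9 and 19 UMIs in Endo, and EPHB4, a receptor known from veins, gave 1 and 4 UMIs there.

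**Figure D2:**
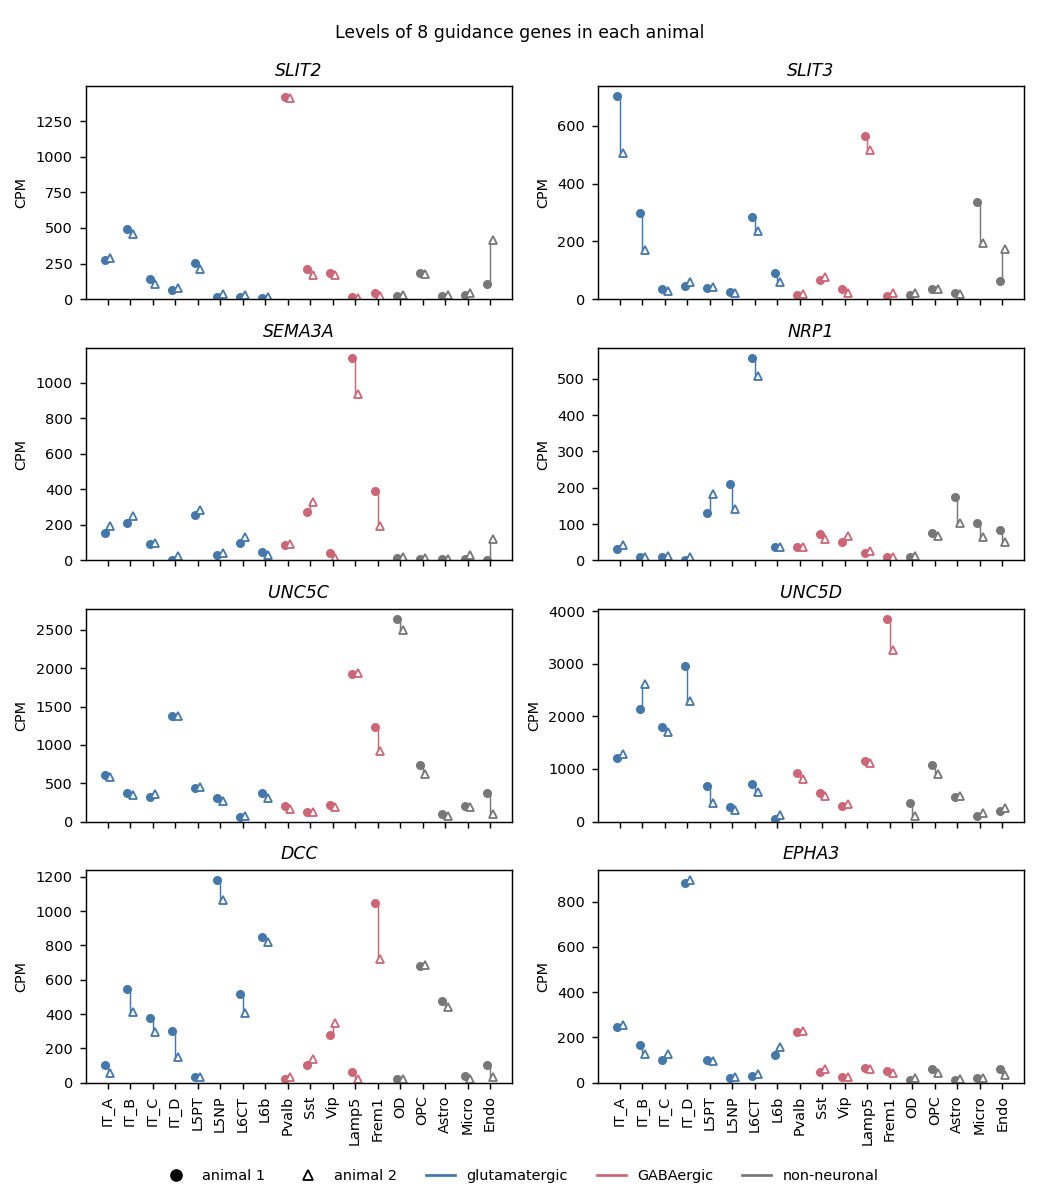
Points give CPM (vertical axes, linear from 0) in animal 1 (filled circles) and animal 2 (open triangles) for 8 guidance genes in 18 subclasses, with lines joining the animals. SLIT2 peaks in Pvalb at 1422 and 1414 CPM, SEMA3A in Lamp5, NRP1 in L6CT and EPHA3 in IT_D, and the spread between animals is small beside these peaks.

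The 15 members below the minimum were SEMA3B, SEMA3F, SEMA4F, SEMA4G, SEMA6C, ROBO4, NTN3, EFNA3, EFNA4, EFNB1, EFNB3, EPHA1, EPHA2, EPHA8 and UNC5CL. EPHA8 came closest, at 24.2 and 19.3 CPM in OPC, and SEMA4G was at 22.9 and 14.1 CPM in Vip. EPHA2 gave 2 UMIs in OPC of animal 2 and none in OPC of animal 1. Just inside the minimum lay UNC5B, SEMA4C and EPHB4, which passed in animal 1 through 1 UMI in Endo (20.6 CPM).

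Subclass sums were then compared in 6 contrasts with edgeR's quasi-likelihood test, adjusted over all genes tested (threshold 0.05). Levels quoted for a group are means of its subclasses' CPM in animals 1 and 2, and fold changes are log2 ± SE. Group means can hide overlap between single subclass sums, which occurred for 18 of the 70 named changes, 10 of them among the 12 in GABAergic against glutamatergic neurons. The subclasses had been defined from the expression of the same nuclei. Each contrast was repeated with labels predicted without the members. The prediction learned from the deposited labels, and 96.9% of nuclei kept theirs, so this repeat cannot remove that dependence. The members' levels were not matched to those of the other genes tested. Both sides of each contrast come from the same 2 animals, and the contrasts of L5PT and L6CT share the IT sums.

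Guidance genes differed between the neuronal classes mainly by being lower in GABAergic neurons. Of 57 members tested, 42 (73.7%) passed the threshold, against 42.8% of 16156 genes. Of these, 12 rose in GABAergic neurons (20.8% of genes rose) and 30 fell (22.0% of genes fell), with a median log2 fold change of -0.47 over the members and 0.01 over all genes. All 8 Eph receptors tested fell (EPHA1, EPHA3, EPHA4, EPHA5, EPHA7, EPHA8, EPHB2 and EPHB6), as did 4 of 7 plexins and 9 of 16 semaphorins, while 5 semaphorins and 2 plexins rose. Among single subclasses, EPHA5 lay higher in every GABAergic one than in IT_A and IT_B. EPHA7 lay higher in Sst and Vip than in IT_D and L5NP. EPHA1 and EPHA8 could not be tested with 53 nuclei per subclass and animal. With 53 nuclei per subclass and animal, 21 of 41 members passed (51.2%), against 38.6% of 8307 genes, and the calls of SEMA3C, SEMA3E, SEMA4D, SEMA6A, SEMA6D, PLXNC1, SLIT2, SLIT3, NRP1 and EFNA2 were lost, with 11 more members not tested there. SEMA4D changed sign in that fit, and SEMA3E was also lost with doublets removed. PLXND1 was at 6.74 and 9.46 CPM in GABAergic against 71.6 and 46.3 CPM in glutamatergic neurons, a log2 fold change of -2.80 ± 0.23 (edgeR adjusted p = 1.83e-09). NEO1 was at 67.2 and 68.7 CPM against 356 and 264 CPM (-2.25 ± 0.09, edgeR adjusted p = 2.17e-14). SEMA7A (-2.29 ± 0.12) and UNC5A (-2.08 ± 0.11) fell too, as did PLXNA1 (34.2 and 29.2 CPM against 108 and 82.6 CPM), with no overlap between the class means. SEMA3A rose, from 111 and 132 CPM to 387 and 314 CPM (1.02 ± 0.16, edgeR adjusted p = 2.03e-05), by 2.06 in animal 1 and 0.71 in animal 2 taken alone, as did PLXNB1, from 5.06 and 4.90 CPM to 14.8 and 14.7 CPM (1.41 ± 0.17). SEMA3A was at 1141 and 937 CPM in Lamp5, and in Pvalb (89.2 and 94.9 CPM), the GABAergic subclass with most nuclei, and Vip (44.2 and 15.6 CPM) it lay below the glutamatergic means of both animals. Summed astrocyte markers were at 20.9 to 55.3 CPM in the GABAergic and 12.2 to 28.8 CPM in the glutamatergic sums, against 4237 and 3957 CPM in Astro, where PLXNB1 was highest, and their part in its change was not tested. SEMA3D, UNC5B, NTN4 and EFNA1 also passed, at levels under 8 CPM in both classes, and the values of EFNA1 overlapped. SEMA6A rose by 0.93 ± 0.24.

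Within the GABAergic class, Pvalb and Sst neurons (of the medial ganglionic eminence, MGE) were set against Vip, Lamp5 and Frem1 neurons (grouped here as of the caudal ganglionic eminence, CGE). Of 57 members, 28 (49.1%) passed, against 24.4% of genes, with 16 higher in MGE neurons (14.4% of genes) and 12 lower (9.98% of genes). With 53 nuclei per subclass and animal 21 of 41 passed (51.2%), against 18.9% of genes. SEMA3C was at 99.9 and 75.7 CPM in MGE against 4.05 and 2.54 CPM in CGE neurons (4.76 ± 0.35, edgeR adjusted p = 8.31e-10). SLIT2 followed, at 817 and 790 CPM against 81.7 and 66.3 CPM (3.66 ± 0.21, edgeR adjusted p = 1.01e-11), then EPHB6, an Eph receptor without kinase activity (2.72 ± 0.32), PLXNA1 (2.37 ± 0.17), SEMA3E (2.28 ± 0.35) and EFNA5 (2.18 ± 0.11). Both neuropilins passed in the same direction, NRP2 losing its call with 53 nuclei per subclass and animal. Lower in MGE neurons were SEMA5A, at 15.9 and 17.2 CPM against 203 and 308 CPM (-3.23 ± 0.32, edgeR adjusted p = 6.31e-08), and UNC5C, at 159 and 144 CPM against 1124 and 1017 CPM (-2.30 ± 0.09, edgeR adjusted p = 2.9e-14). SEMA5B (-2.02 ± 0.23), SEMA4A (-1.99 ± 0.22), DCC (-1.92 ± 0.22) and PLXNC1 (-1.68 ± 0.17) were lower too. The means of the groups did not overlap for any of these 12 named genes, but single subclasses did for 4. SLIT2 was at 213 and 167 CPM in Sst and 186 and 169 CPM in Vip, and SEMA3E at 4.66 and 3.65 CPM in Pvalb and 8.03 and 1.15 CPM in Frem1. DCC was at 105 and 140 CPM in Sst and 60.6 and 24.0 CPM in Lamp5, and UNC5C at 200 and 162 CPM in Pvalb and 223 and 195 CPM in Vip.

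Neurons with subcerebral axons (L5PT) were compared with the 4 IT subclasses, whose axons lie inside the telencephalon. Of 57 members, 26 (45.6%) passed, against 18.5% of genes, with 16 higher in L5PT (10.2% of genes) and 10 lower (8.39% of genes). With 53 nuclei per subclass and animal 16 of 41 passed, against 12.2% of genes, with SEMA3D and SEMA4C not tested there. Summed oligodendrocyte markers were at 151 and 133 CPM in L5PT and 61.6 to 101 CPM in the IT sums, and their part in the differences was not tested. NRP1 was at 131 and 182 CPM in L5PT against 12.0 and 18 CPM in IT neurons (3.61 ± 0.18, edgeR adjusted p = 4.91e-12), and NRP2 rose by 1.82 ± 0.25. SEMA3A was at 257 and 282 CPM against 113 and 142 CPM (1.51 ± 0.25, edgeR adjusted p = 9.63e-05), and SEMA3C rose by 1.75 ± 0.24. The SEMA3A change was 2.89 in animal 1 and 1.40 in animal 2 taken alone, and IT_D gave no SEMA3A UMI in animal 1 (3 UMIs would be 5.28 CPM) and was at 27.5 CPM in animal 2. Of the 6 receptors of the DCC, NEO1 and UNC5 group, 4 fell and NEO1 rose, with DCC going from 332 and 229 CPM to 31.0 and 31.1 CPM (-2.87 ± 0.29, edgeR adjusted p = 1.51e-07) and UNC5D from 2021 and 1974 CPM to 684 and 356 CPM (-1.89 ± 0.22), and UNC5A and UNC5C passed in the same direction. The call of UNC5A was lost with no low-count filter, with 53 nuclei per subclass and animal and with predicted labels. In both animals UNC5C in L5PT lay above IT_B and IT_C and below IT_A and IT_D. UNC5A in L5PT lay above IT_B and below the other IT subclasses. SEMA5A (-3.07 ± 0.38) and SLIT3 (-1.66 ± 0.20) were lower in L5PT, as were SEMA3E and SEMA4C, with group means under 10 CPM. SEMA3E in L5PT (1.27 and 2.24 CPM) overlapped with IT_A (1.68 and 1.90 CPM) and IT_D (0 and 2.71 CPM) and lay below IT_B (14.5 and 17.7 CPM) and IT_C (11.2 and 16.4 CPM). SLIT3 in L5PT (39.1 and 41.1 CPM) lay above IT_C (36.5 and 29.3 CPM) and below IT_D (45.7 and 59.7 CPM), with IT_A at 702 and 507 CPM and IT_B at 300 and 171 CPM. RGMA rose by 1.88 ± 0.22 while its mean levels overlapped, since IT_D was at 113 and 75.3 CPM and the other IT subclasses at most 7.52 CPM. The calls of NRP2, SEMA3C and SEMA3E were lost with 53 nuclei per subclass and animal, at log2 fold changes of 2.14, 1.18 and -0.30 there. The SEMA3D change (2.26 ± 0.40) was between 6.33 and 4.64 CPM and 1.35 and 1.24 CPM.

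L6CT neurons were compared with the same IT sums. Of 57 members, 31 (54.4%) passed, against 21.7% of genes, with 17 higher in L6CT (10.9% of genes) and 14 lower (10.8% of genes). With 53 nuclei per subclass and animal 17 of 41 passed, against 13.9% of genes, and 3 members called here (SEMA4C, SEMA4F and EPHA1) were not tested there. NRP1 had the largest fold change of the members tested, at 558 and 507 CPM in L6CT against 12.0 and 18 CPM in IT neurons (5.31 ± 0.17, edgeR adjusted p = 3.81e-15). SEMA5B was at 272 and 243 CPM against 97.2 and 63.1 CPM (1.89 ± 0.18), SEMA3C rose by 2.25 ± 0.21 and EPHB6 by 1.79 ± 0.21, and 7 of 16 semaphorins rose while 2 fell (SEMA4D, SEMA3E, SEMA6A and SEMA6D losing their calls with 53 nuclei per subclass and animal). UNC5C was at 57.7 and 68.6 CPM against 671 and 663 CPM (-3.21 ± 0.12, edgeR adjusted p = 2.86e-14). SLIT2 fell from 244 and 232 CPM to 17.4 and 31.1 CPM (-3.00 ± 0.25), and both ROBO receptors tested were lower. EPHA3 (-2.82 ± 0.16), EPHA4 (-2.05 ± 0.18), UNC5D (-1.64 ± 0.21) and PLXNA1 (-0.94 ± 0.14) were lower in L6CT with no overlap between the means, although PLXNA1 in L6CT (58.4 and 44.9 CPM) overlapped with IT_B (60.4 and 49.8 CPM). PLXNB1 (1.92 ± 0.21) lost its call in the same way, and SEMA3E rose by 1.88 ± 0.23.

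Within the IT neurons, IT_A was compared with IT_C. Of 58 members, 17 (29.3%) passed, against 10.8% of 16720 genes, with 13 higher in IT_A (5.87% of genes) and 4 lower (4.98% of genes). With the animal as a replicate block, 39 of the 58 passed (67.2%), 26 higher and 13 lower, including all 17, against 28.9% of the same genes. With no low-count filter 26 of 64 passed, against 8.88% of genes, and with 58 nuclei per subclass and animal 9 of 38, against 8.42% of genes, with UNC5B, EPHA8, NRP2 and SEMA3D not tested in that last fit. SLIT3 was at 702 and 507 CPM in IT_A against 36.5 and 29.3 CPM in IT_C (4.23 ± 0.28, edgeR adjusted p = 4.04e-05). SEMA6A was higher in IT_A by 2.69 ± 0.27, NRP1 at 30.3 and 41.4 CPM against 8.50 and 11.5 CPM (1.87 ± 0.36), and RGMA at 7.1 and 6.38 CPM against 1.40 and 2.27 CPM (1.89 ± 0.29). Lower in IT_A were SEMA3E, at 1.68 and 1.90 CPM against 11.2 and 16.4 CPM (-2.91 ± 0.33), DCC, at 104 and 58.9 CPM against 379 and 296 CPM (-2.03 ± 0.29, edgeR adjusted p = 0.0022), PLXNA1, at 78.3 and 65.0 CPM against 243 and 188 CPM (-1.56 ± 0.17), and EPHA5 (-0.49 ± 0.11). The calls of SEMA6A, RGMA, NRP1 and EPHA5 were lost with 58 nuclei per subclass and animal, at log2 fold changes of 2.14, 3.73, 2.37 and -0.50 there. The calls of UNC5B (2.16 ± 0.54) and SEMA3D (1.83 ± 0.44) were lost with DESeq2.

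In the oligodendrocyte lineage, 38 of 53 members tested (71.7%) differed between OPC and OD, against 43.8% of 13483 genes. Of these, 24 were higher in OPC (24.9% of genes) and 14 lower (18.8% of genes). With 29 nuclei per subclass and animal 9 of 20 members passed, beside 972 of 2701 genes. That fit could not test 22 of the 38 members called, among them NTN4, NRP2, SLIT2, EFNA1, EFNA2, SEMA3C, SEMA3D, SEMA4C, SEMA4D and UNC5B. NTN4 was at 238 and 149 CPM in OPC against 4.09 and 6.81 CPM in OD (5.09 ± 0.28, edgeR adjusted p = 1.14e-12), and DCC at 682 and 687 CPM against 20.3 and 23.6 CPM (4.88 ± 0.19, edgeR adjusted p = 1.38e-14). The 3 SLITs, both neuropilins and both netrins tested were higher in OPC, NRP2 among them at 49.8 and 51.6 CPM against 2.25 and 3.14 CPM (4.14 ± 0.29). RGMA (4.21 ± 0.30), EFNA2 (3.97 ± 0.43) and SEMA3D (3.04 ± 0.35) were also higher in OPC. Summed neuronal markers were higher in OPC (1117 and 1243 CPM) than in OD (314 and 434 CPM), as were summed astrocyte markers (435 and 368 CPM against 54.2 and 64.9 CPM), and the part of either in these differences was not tested. RGMA and EFNA2 were highest in Astro, at 185 and 177 CPM and 47.6 and 50.6 CPM. OD had more SEMA3C, at 163 and 141 CPM against 20.9 and 24.3 CPM (-2.85 ± 0.20), SEMA4C (-3.00 ± 0.45), SEMA4A (-2.88 ± 0.35) and UNC5B (-2.35 ± 0.39), and UNC5C, PLXNB3, SEMA4D and SEMA6A passed in the same direction. SEMA3G and EFNA1 passed at under 5 CPM in both. SEMA3G lost its call with doublets removed, with predicted labels and with 29 nuclei per subclass and animal, EFNA1 lost it with DESeq2, and RGMA, SLIT3, NRP1 and SEMA6A with 29 nuclei.

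**Figure D3:**
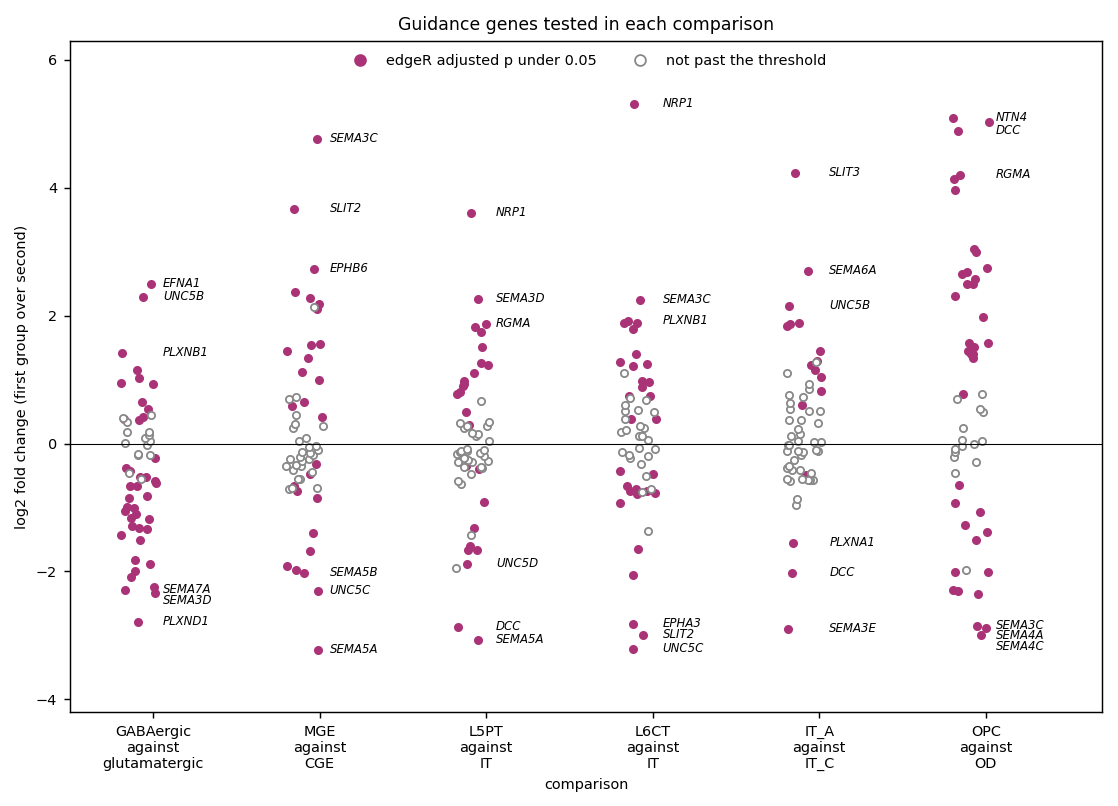
Each point is the log2 fold change (vertical axis, first group over second) of 1 guidance gene in 1 of 6 comparisons of subclass sums, filled where the edgeR adjusted p is under 0.05 and open otherwise, with horizontal spread added for legibility. Up to 3 named genes per direction are labelled, NRP1 standing highest against IT neurons at 5.31 in L6CT and 3.61 in L5PT.

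Other genes of the pathway, a list of 55 co-receptors, adaptors and effectors, were counted beside the members. Of these, 42 have a symbol in the files. In GABAergic against glutamatergic neurons 29 of 40 tested passed (15 higher, 14 lower), against 42.8% of all genes tested. In MGE against CGE 21 of 40 passed (14 and 7), against 24.4%, in L5PT against IT 20 of 40 (14 and 6), against 18.5%, and in L6CT against IT 18 of 40 (9 and 9), against 21.7%. In IT_A against IT_C 9 of 41 passed (5 and 4), against 10.8%, and in OPC against OD 28 of 41 (21 and 7), against 43.8%. NTNG1, a membrane-anchored netrin relative, rose in L5PT (2.00 ± 0.18) and fell in L6CT (-3.39 ± 0.26), and NTNG2 fell in L6CT (-4.40 ± 0.25). In OPC against OD, MYO10, an unconventional myosin of filopodia, was higher (4.48 ± 0.22) and CNTN2, a cell adhesion molecule, lower (-5.10 ± 0.26).

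Ligands and receptors were also set side by side. Of 64 listed pairs, 49 had both symbols and 40 had both genes past the minimum. Ligand and receptor were highest in the same subclass in 3 pairs and in the same class in 15. Without the subclasses under 100 nuclei in an animal, 34 pairs passed, 1 in the same subclass and 7 in the same class. No share for unrelated pairs of genes was computed, so these counts are a description only. Of the 3 pairs in the same subclass, SEMA4B with PLXNB1 was in Astro, and EFNB2 with EPHB4 and with EPHA4 were in Endo, on few UMIs. SLIT2 and ROBO2 were highest in Pvalb and in Sst, and ROBO2 in Pvalb was at 284 and 392 CPM. SEMA3A was highest in Lamp5, where NRP1 was at 19.4 and 25.6 CPM and PLXNA1 at 7.27 and 3.88 CPM, while in L6CT, the subclass highest for NRP1, SEMA3A was at 101 and 133 CPM. EFNA5 was highest in Sst, where EPHA3 was at 47.1 and 61.6 CPM and EPHA5 at 751 and 697 CPM. SEMA3E and PLXND1 were highest in OPC and in Endo, and PLXND1 in OPC was at 24.7 and 28.0 CPM. Over the 18 subclasses, Spearman's rho of mean CPM was 0.77 for SLIT1 and ROBO1, 0.66 for EFNA5 and EPHA7 and -0.66 for SEMA6A and PLXNA2, a description only, as the points share animals and libraries.

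Levels also varied among the study's transcriptomic types within a subclass, for types with at least 50 nuclei in each animal. These types were drawn from the same expression data, so the differences are descriptive. A member was counted where its highest type was the same in both animals and lay at least 2-fold above the lowest type in all values. In Pvalb (6 types) 20 of 34 members past 20 CPM were counted, against 17.6% of genes, in IT_A (5 types) 12 of 36 against 11.9%, in L6CT (4 types) 10 of 37 against 7.27%, in Sst (3 types) 9 of 34 against 7.76%, and in Lamp5 (2 types) 6 of 27 against 1.35%. The other subclasses with several such types gave 4 of 31 in OD (against 6.61%), 2 of 30 in Vip (2.49%), 1 of 33 in L5PT (3.45%), 1 of 33 in Astro (1.41%) and 0 of 32 in IT_C (3.53%). Pvalb_5, a type of 110 and 99 nuclei, held UNC5C at 1086 and 874 CPM, against 23.0 and 20.9 CPM in Pvalb_3, and EPHA3 at 1241 and 1148 CPM, against 24.0 and 29.7 CPM in Pvalb_6. The same type was lowest for SLIT2 (694 and 446 CPM, against 1939 and 2237 CPM in Pvalb_3), EFNA5 (312 and 230 CPM) and SEMA3A (13.1 and 6.01 CPM). Pvalb_6 was highest for SEMA3A (385 and 378 CPM), NRP1 (159 and 181 CPM) and DCC (77.1 and 165 CPM).

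In IT_A, type IT_A_4 was highest for SLIT3 (1578 and 1195 CPM, against 288 and 255 CPM in IT_A_2) and for UNC5D (1976 and 2342 CPM, against 385 and 295 CPM in IT_A_5). DCC was highest in IT_A_2 (230 and 156 CPM) and SEMA5A in IT_A_3 (306 and 543 CPM). In Lamp5, SLIT3 was at 907 and 982 CPM in Lamp5_2 and 146 and 130 CPM in Lamp5_1. In L6CT, SLIT3 was at 431 and 372 CPM in L6CT_1 and 75.3 and 76.9 CPM in L6CT_3, and SEMA3C at 68.5 and 55.0 CPM in L6CT_3 and 11.5 and 6.98 CPM in L6CT_4. In Sst, SEMA3C was at 240 and 213 CPM in Sst_3 and 28.7 and 13.4 CPM in Sst_1.

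**Figure D4:**
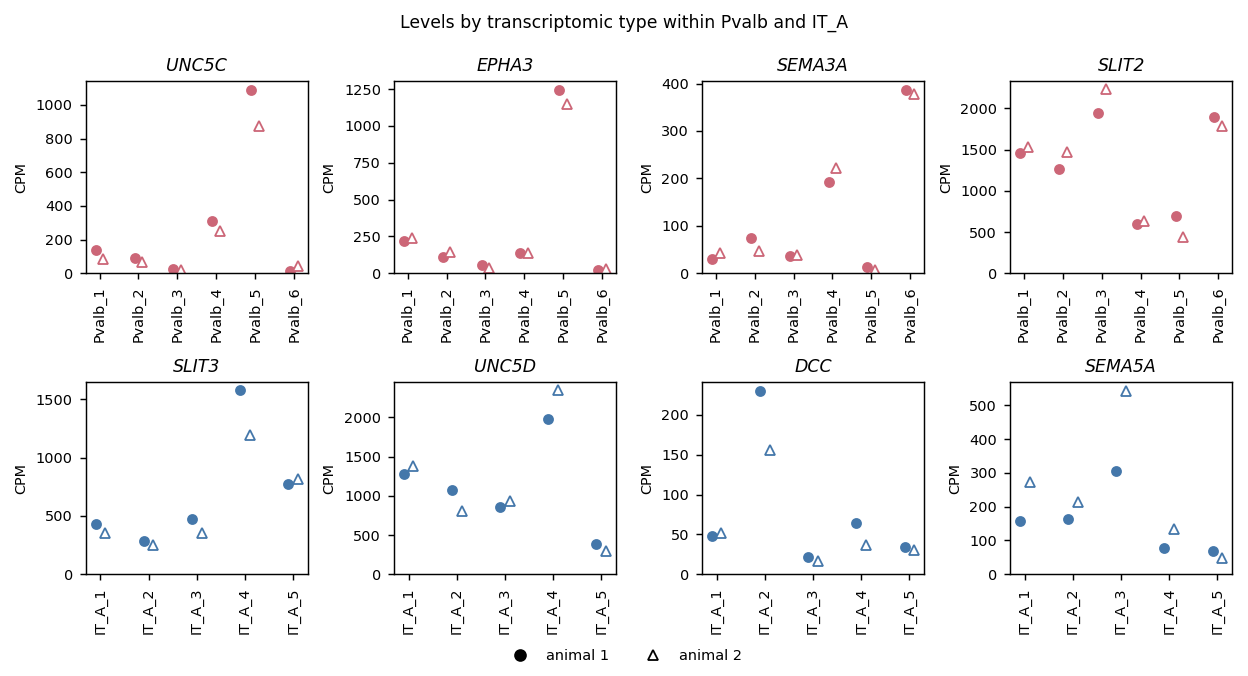
Points give CPM (vertical axes, linear from 0) of guidance genes in animal 1 (filled circles) and animal 2 (open triangles) in the transcriptomic types of Pvalb (upper row) and IT_A (lower row). UNC5C and EPHA3 stand at 874 to 1241 CPM in Pvalb_5, and SLIT3 at 1195 to 1578 CPM in IT_A_4.

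The animals were last compared within IT_A, the subclass with most nuclei (4301 and 5563), with 1 animal on each side and no test. Of 33 members past 20 CPM, the animals' libraries did not overlap for 32, at any fold, against 74.9% of 6233 genes. None differed at least 2-fold with no overlap of the libraries, against 1.09% of those genes. At 1.5-fold, 4 of 33 did, against 5.05% of genes. DCC was at 99.3 and 109 CPM in the libraries of animal 1 and 54.6 and 62.6 CPM in those of animal 2, EPHB2 at 166 and 167 CPM against 85.3 and 83.1 CPM, PLXND1 at 76.0 and 85.5 CPM against 48.7 and 44.4 CPM, and SEMA5A at 153 and 162 CPM against 258 and 278 CPM. The types of IT_A had different shares in the animals, IT_A_1 with 981 and 2465 nuclei and IT_A_2 with 1204 and 875. Within IT_A_1, DCC was at 48.6 and 51.6 CPM, EPHB2 at 184 and 71.9 CPM, PLXND1 at 64.1 and 36.8 CPM and SEMA5A at 157 and 273 CPM. Within IT_A_2, DCC was at 230 and 156 CPM, EPHB2 at 180 and 101 CPM, PLXND1 at 95.1 and 74.7 CPM and SEMA5A at 164 and 214 CPM. Over the 5 types, EPHB2 and PLXND1 were lower in animal 2 in 5 of 5 and DCC in 4 of 5, IT_A_1 being the exception. SEMA5A was higher in animal 2 in 4 of 5 types and lower in IT_A_5 (67.7 and 49.1 CPM).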

How the data were processed

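The deposited values are raw UMI counts per gene and nucleus, made by the authors with Cell Ranger, introns included, on ASM229v1 with Ensembl release 110 genes whose 3′ ends they extended. The submitters' processing notes name version 6.1.1 and the matrix headers name 7.1.0. Intronic reads and extended ends raise the counts of long genes and of genes with short annotated ends, so levels were not compared between genes. Deposited subclass and type labels were used, 3794 barcodes without a subclass were left out, and the 798 labelled nuclei called doublets (2.44%) were kept. Libraries shared 16 to 30 barcodes. Gene names come from the files, and 64 of the 73 symbols that RefSeq (mMonDom1) lists under the rule were present. The members, the lists and the comparisons were chosen with earlier results of these data known.

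Counts of both libraries of an animal were summed by subclass and tested with edgeR 4.0.16 (quasi-likelihood, TMM, filterByExpr, Benjamini-Hochberg, threshold 0.05) in 1 fit for the 26 neuronal sums, 1 for the 8 IT sums and 1 for the 10 non-neuronal sums. The script was tested on simulated data. Single values were not tested, since 2 animals against 2 cannot give an exact p under 1/3. A member was named if it reached 20 CPM in both animals and was among the 6 largest called changes, of the same direction in both animals, on a side of a contrast or the 25 highest ratios of highest to next subclass, or if it was in a listed ligand and receptor pair. A few others, and the genes named in the type and pathway paragraphs, were chosen after their values were seen. Sums of the same animal deviated together (correlation 0.03 to 0.62, median 0.17, over 78 pairs of neuronal sums), a pairing that comes from the animals. Alternatives were DESeq2 1.42.0, the animal as a replicate block, no low-count filter, equal nuclei, doublets removed, labels predicted from other genes (15 neighbours, 30 principal components, 96.9% of nuclei kept their label), other minimums and each animal alone (0.5 CPM added before log2). R 4.3.3 and Python were used. Counting error covers UMIs only, and the worth of 1 UMI ran from 0.0186 CPM (IT_A, animal 2) to 20.6 CPM (Endo, animal 1).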

Additional observations from a re-analysis of the deposited data

Results flagged for a closer look

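GABAergic nuclei that the deposited table codes as ambiguous and gives no subclass (302 and 428 nuclei, with median UMIs of 1887 and 1859) carried 4 members above the level of every labelled subclass except Endo in both animals, of the 30 members at 20 CPM or more there in both. This was 13.3% of those members, against 5.76% of the 5986 genes past the same minimum. PLXNC1 was at 398 and 434 CPM, against 210 and 290 CPM in Frem1, the highest labelled subclass. EFNB2 was at 201 and 158 CPM, against 123 and 92.8 CPM in Vip. ROBO2 was at 651 and 847 CPM, against 523 and 709 CPM in Sst. SEMA4G was at 32.4 and 28.1 CPM, against 22.9 CPM in Vip of animal 1 and 17.5 CPM in Sst of animal 2. By the methods, such clusters were set aside for their label transfer, their predicted doublets or their size. In these nuclei 3 and 2 were called doublets, and the part of doublets in the levels was not tested. These nuclei entered no comparison, and the differences were not tested.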

How the results depend on the processing

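Of 404 values of named members refitted with both animals, 387 kept their direction and call, 17 lost the call and none reversed. Of those 17, 12 were lost with equal nuclei. Other named changes could not be tested with equal nuclei and are not among the 404. Among the other members called, SEMA4D changed sign with equal nuclei in GABAergic against glutamatergic neurons and was not called there. In 1 animal alone, all 140 values kept their direction, but 61 moved by more than the spread between the animals. The log2 change in 1 animal came from CPM with 0.5 CPM added, unlike the fit, so both animals can differ from the fit. In at least 1 animal the change differed by over 1.5 times from that of the fit for 10 of 70 named changes. In GABAergic against glutamatergic neurons these were SEMA3A (2.06 in animal 1 and 0.71 in animal 2), EFNA1 (1.54 and 0.91), UNC5B (1.50 and 1.87) and SEMA3D (-1.44 and -0.80). In L5PT against IT they were SEMA3A (2.89 and 1.40), SEMA3E (-1.08 and -1.35) and SEMA4C (-0.995 and -1.82), in IT_A against IT_C SEMA3D (0.96 and 1.59), and in OPC against OD EFNA1 (-2.03 and -1.06) and SEMA3G (-3.38 and -0.62). With equal nuclei, both the members tested and those passing fell in every contrast. In MGE against CGE 21 of 41 passed (18.9% of genes), and in GABAergic against glutamatergic 21 of 41 (38.6%). In L5PT against IT 16 of 41 passed (12.2%), and in L6CT against IT 17 of 41 (13.9%). In IT_A against IT_C 9 of 38 passed (8.42%), and in OPC against OD 9 of 20 (972 of 2701 genes). In IT_A against IT_C the animal as a replicate block gave 39 of 58 members (28.9% of genes passed) and no low-count filter gave 26 of 64 (8.88%). The block lost no member's call in any of the 6 contrasts and added 1 to 22. The count of pairs highest in the same class was 7 without subclasses under 100 nuclei, and 15 to 15 in each animal alone. Between the animals in IT_A, 4 of 33 members passed at 1.5-fold and a minimum of 20 CPM (5.05% of genes). At 2-fold and a minimum of 5 CPM, 0 of 49 passed (2.04% of genes). The share of members with the same highest subclass was 70.0% to 86.4% over its alternatives (31 of 38 at 50 CPM and 42 of 60 at 5 CPM among them), against 54.6% to 72.4% of genes. With 1 animal no count of calls can be tested, so those were not run. The causes were not tested. With equal nuclei, fewer genes were tested and most sums held fewer nuclei, and the parts of these were not separated. Endo, L6b and IT_D of animal 1 are limited by 29 to 58 nuclei.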
